A study of Mus musculus with 12 samples.

Results

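Transcripts of blood and lymph vessel lining were followed through 35 listed mouse genes, comprising genes that mark endothelial identity and genes of the signals that guide vessel growth. These genes were followed because endoglin acts mainly in endothelium, and Eng itself and its receptors were kept off the list. A gene was taken as measured when a non-control spot of the arrays carried an accession that mapped to its symbol. All 35 genes had a probe, 34 of them could be tested, and they were read among 25093 tested features, of which 17173 carried a gene symbol.

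RNA was hybridised to 12 Agilent 2-colour mouse arrays in a study of endoglin, a co-receptor for Tgf-β and Bmp ligands, in the hair follicle cycle. The groups were Eng+/- and wt at 90 d and 50 d with clp, with tpa and with no named treatment, and each of these combinations had 1 array. The sources used here explain neither the day count nor the names clp and tpa. Each array carried the sample in Cy5 and the same pool of all conditions in Cy3, so a value is the log2 ratio of a sample to that pool. The 3 treatment levels lay on 3 slides of 4 arrays each, so treatment and slide cannot be told apart, whereas both genotypes and both days lay on every slide. The labels do not describe the Eng+/- allele, the animals or the strain, and nothing says how many animals or cultures stand behind an array. The titles of the wt arrays without a named treatment include the word pool, and these 2 arrays were read as wt samples.

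By label the RNA is from E14, a single line of mouse embryonic stem cells, which the markers went against. Only 4 of 10 pluripotency genes that had a probe exceeded background on all 12 arrays, and 1 did so on none, while 9 of 9 epidermal genes and 15 of 16 hair shaft and root sheath genes did on all 12. Endothelial genes were present too, with 31 of the listed genes and 36 of 39 other endothelial genes above background on every array. The array medians lay between 153 and 502.5 intensity units in Cy5 and between 94 and 132 in Cy3. The Eng+/- array with no named treatment at 90 d stood apart from its slide: over all features it correlated at 0.957 and 0.969 with the Eng+/- and wt tpa arrays at 50 d, and at 0.681 to 0.778 with the other arrays without a named treatment. Eng averaged lower in Eng+/- than in wt arrays by a log2 difference of -0.77 ± 0.26 (SE), which did not pass the test (limma, adjusted p = 0.331). It was lower in 5 of 6 pairs, and in the tpa pair at 50 d the array labelled Eng+/- held the higher ratio (-0.49, against -1.13 in wt), so the genotypes below are those of the labels.

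Endothelial cells are joined by adhesion proteins such as Pecam1, Cdh5 (VE-cadherin), Esam and Cldn5, and carry surface proteins such as Emcn, Plvap, the guidance receptor Robo4 and Ramp2, a partner of the adrenomedullin receptor. They release or make Vwf, which binds platelets, the nitric oxide synthase Nos3, Egfl7, and the matrix protein Mmrn2. Vessel growth is driven by Vegfa, Vegfb, Vegfc and Vegfd (named Figf on the list) through the receptors Flt1, Kdr and Flt4 with the co-receptors Nrp1 and Nrp2, while Angpt1 and Angpt2 act through Tek beside its relative Tie1, and Apln acts through Aplnr. The transcription factors Sox7, Sox17 and Sox18 (the SOX-F family) and Erg and Fli1 (ETS family) control endothelial gene expression, and Fli1 is also used by blood cells. Prox1 specifies lymphatic endothelium, and Lyve1 and Pdpn mark it, although Lyve1 is also carried by some macrophages and Pdpn by other skin cells. In skin, capillaries around the follicle expand while hair grows, and follicle keratinocytes are a known source of Vegfa.

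Because SOX-F and ETS factors are on the list, promoters of listed genes were searched for a SOX core, ACAAT, read as ATTGT on the other strand, and for an ETS core, CAGGAA, read as TTCCTG on the other strand. The windows ran from 250 bases before to 50 after each gene's start in RefSeq (build GRCm38.p6, where the arrays' own annotation is mm9). Of the tested genes 19 had a window, with 25 windows in all. The SOX core was found in 5 of the 25, against 31% of all 32851 windows, and the ETS core in 11 of the 25, against 30.6% of all windows. The windows below belong to Tek and Nrp1, which differed between clp and tpa, and to Robo4, as another window that holds both cores. They lie on the plus strand at chr4:94739039-94739338 for Tek, chr8:128358823-128359122 for Nrp1 and chr9:37401722-37402021 for Robo4, and capitals mark the matches.
Tek: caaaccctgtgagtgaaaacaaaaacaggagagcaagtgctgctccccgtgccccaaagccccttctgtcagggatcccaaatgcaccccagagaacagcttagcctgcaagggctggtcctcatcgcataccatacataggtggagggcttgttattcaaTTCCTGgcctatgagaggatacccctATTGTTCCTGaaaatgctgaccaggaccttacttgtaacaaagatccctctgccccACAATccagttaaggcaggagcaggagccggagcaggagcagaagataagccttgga
Nrp1: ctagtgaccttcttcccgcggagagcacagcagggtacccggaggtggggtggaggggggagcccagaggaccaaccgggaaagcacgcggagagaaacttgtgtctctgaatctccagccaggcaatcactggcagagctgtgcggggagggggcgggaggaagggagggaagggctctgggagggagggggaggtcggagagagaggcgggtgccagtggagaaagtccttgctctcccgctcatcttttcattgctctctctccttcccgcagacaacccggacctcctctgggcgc
Robo4: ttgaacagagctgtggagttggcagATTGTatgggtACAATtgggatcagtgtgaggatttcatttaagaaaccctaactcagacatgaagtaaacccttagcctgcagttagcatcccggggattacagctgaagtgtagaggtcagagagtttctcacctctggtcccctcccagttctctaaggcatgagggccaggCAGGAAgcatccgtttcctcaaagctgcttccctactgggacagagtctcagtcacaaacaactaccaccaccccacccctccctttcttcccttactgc
The Tek window held 2 SOX and 2 ETS matches, with 1 of each overlapping, the Robo4 window held 2 SOX and 1 ETS match, and the Nrp1 window held neither. A match is a run of letters only, and Fli1, Mmrn2, Sox7 and Ramp2 had no window in the table.

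Among the listed genes, 31 were above background in Cy5 on all 12 arrays and no probe was saturated on any array. Erg was above background on 9 arrays, and was not on wt no named treatment at 90 d nor on either array without a named treatment at 50 d. Flt4, the lymphatic VEGF receptor, was above background on 8 arrays and on none of the 4 clp arrays. Prox1 was above background on 6, and was below it on the 4 clp arrays, on wt with no named treatment at 90 d and on Eng+/- with no named treatment at 50 d. Prox1 and Flt4 had narrow ratios over the arrays (ranges of 0.33 and 0.41) and Erg a range of 1.01, and bounds rather than levels stand behind them on the arrays named. Cdh5 was left out of the tests because its Cy3 spot on the Eng+/- clp array at 50 d was marked as an outlier.

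Across the 12 arrays the listed genes ranged over a median of 1.14 log2 units, against 0.861 for all features. Lyve1 had the widest range, from -2.20 to 1.65, followed by Fli1 with a range of 2.39. At the other end Vegfa, the main VEGF ligand, ranged over 0.48. Of the listed genes 10 lay above the pool on all 12 arrays (Esam, Emcn, Tek, Tie1, Nrp1, Aplnr, Sox17, Sox18, Angpt2 and Apln; 23.7% of all features did), and 5 lay below it on all 12 (Pecam1, Plvap, Robo4, Kdr and Erg; 26.4% of all features). The wt clp array at 50 d held the lowest value of 19 of the 34 genes and the highest of none, where 13% of all features had their lowest value there. The Eng+/- array with no named treatment at 90 d held the highest value of 9 genes and the lowest of none, where 8.63% of all features had their highest and 8.1% their lowest value there.

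**Figure D1:**
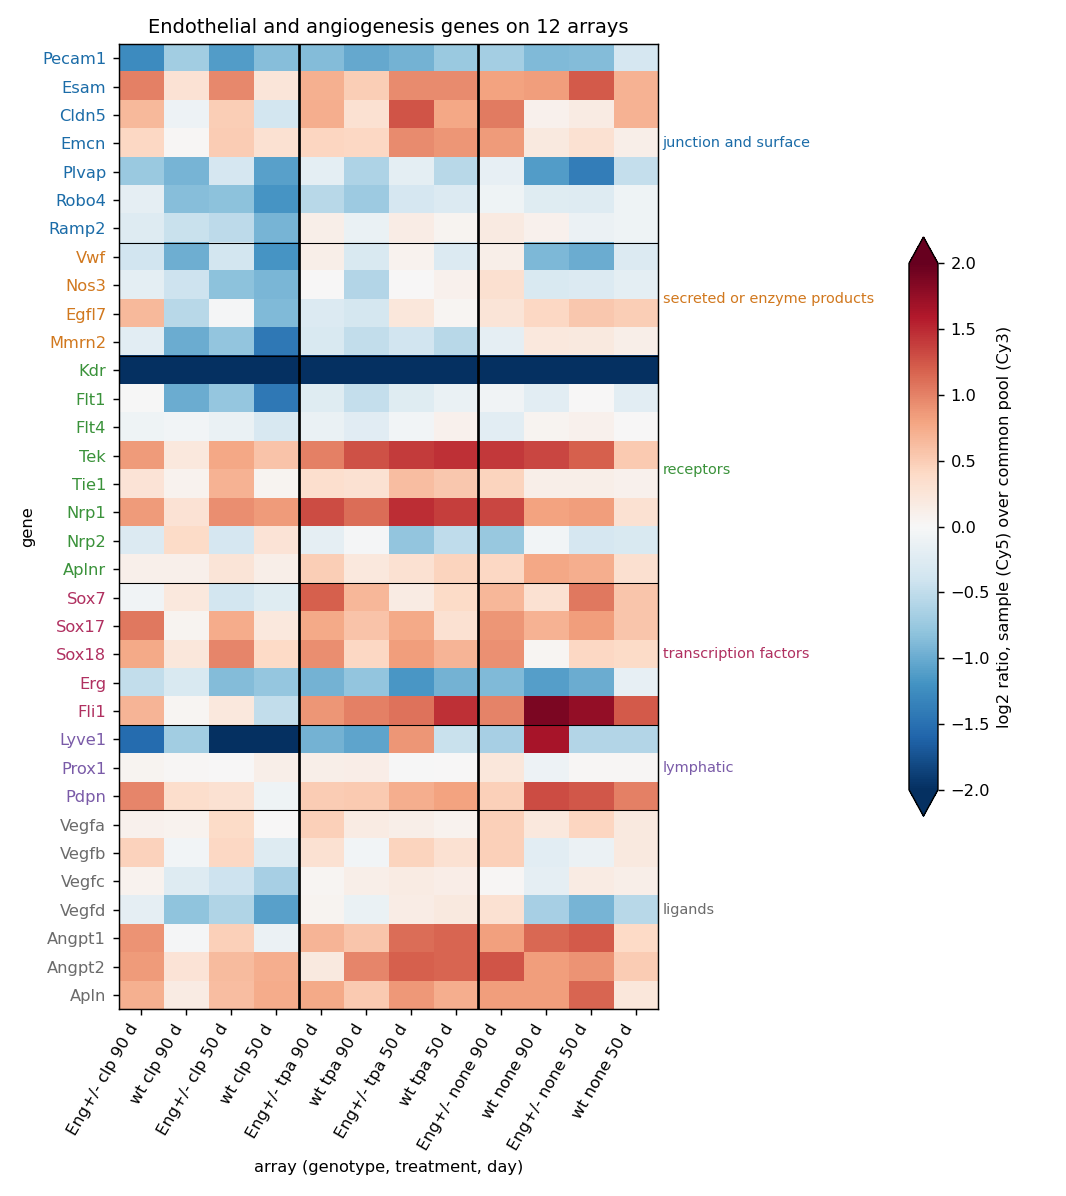
Heat map of the 34 tested genes (down the page, grouped by role) on the 12 arrays (across), coloured by the log2 ratio of sample Cy5 to the common Cy3 pool, with the scale ending at -2 and 2. The lowest ratios of Fli1, Mmrn2, Ramp2 and Lyve1 lie on clp arrays, and Kdr is below the pool on every array.

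Kdr, the main signalling receptor for Vegfa, had 2 probes that stood at different ratios to the pool. The brighter probe, which stands for the gene, ran from -3.50 to -2.21, and the other probe from -1.37 to -0.23. Levels of different probes cannot be compared, and the direction of the Eng+/- minus wt difference also differed between the probes of Kdr, Vegfa, Plvap and Pdpn, which are 4 of the 7 genes with more than 1 probe above background on at least 2 arrays.

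The comparison of clp with no named treatment moved 4 listed genes past the threshold, and all 4 fell: the ETS factor Fli1, the matrix protein Mmrn2, the SOX-F factor Sox7 and the receptor partner Ramp2. No listed gene rose. This is 4 of 34 tested genes, against 3.5% of all features called lower and 4.26% called higher. Of the 34 genes, 26 had a negative difference, and the median was -0.261, against 0.0108 for all features. In bulk RNA, fewer endothelial cells and less RNA per cell cannot be told apart.

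Values of 4 arrays are given in the order Eng+/- 90 d, wt 90 d, Eng+/- 50 d and wt 50 d. Fli1 stood at 0.68, 0.04, 0.21 and -0.50 on the clp arrays, against 0.99, 1.88, 1.76 and 1.22 on the arrays with no named treatment. The groups did not overlap, and Fli1 fell by a log2 difference of -1.36 ± 0.27 (SE; limma, adjusted p = 0.0259). Mmrn2, a ligand of endothelial lectins in the vessel matrix, stood at -0.21, -1.0, -0.79 and -1.43 with clp, against -0.18, 0.21, 0.20 and 0.12 with no named treatment. Its groups also did not overlap, although the Eng+/- pair at 90 d differed by only -0.04, and the difference was -0.95 ± 0.20 (limma, adjusted p = 0.0292).

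Sox7 stood at -0.07, 0.21, -0.37 and -0.24 with clp, against 0.67, 0.31, 1.05 and 0.56 with no named treatment. All clp values were lower, and the difference was -0.77 ± 0.18 (limma, adjusted p = 0.0395). Ramp2 stood at -0.26, -0.44, -0.53 and -0.93 with clp, against 0.18, 0.08, -0.12 and -0.08 with no named treatment. It had the smallest difference of the 4 genes, -0.56 ± 0.14 (limma, adjusted p = 0.0450), with every clp array below every array it was compared with. All 4 genes were lower in 4 of 4 pairs of arrays of the same genotype and day.

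**Figure D2:**
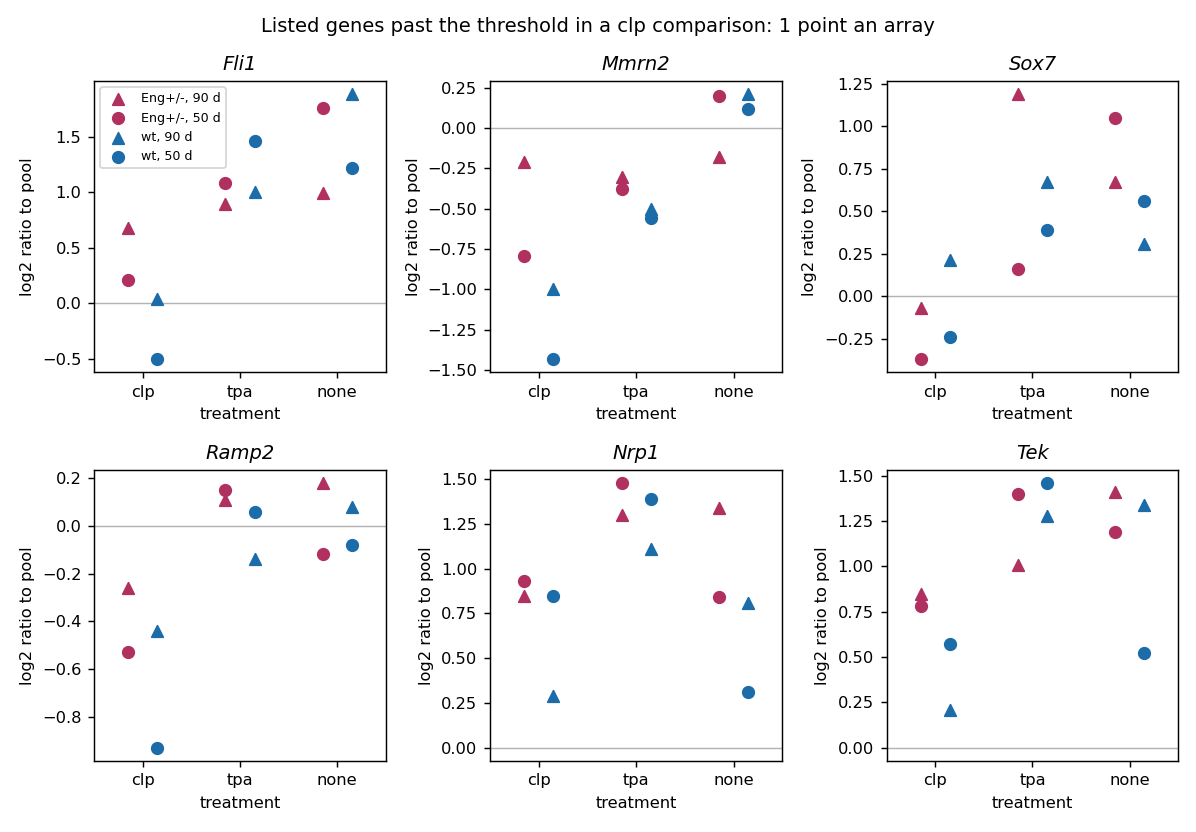
Log2 ratio to the pool (y axes) of the 6 listed genes past the threshold in a comparison with clp, by treatment (x axes), with 1 point per array, colour for genotype and shape for day. The clp points of Fli1, Mmrn2, Sox7 and Ramp2 lie below those with no named treatment, and those of Nrp1, Tek and Ramp2 lie below the tpa points.

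Lyve1 and Aplnr also had groups that did not overlap but did not pass the test, so 6 listed genes were lower without overlap, where 3.98% of all features were. Lyve1 stood at -1.54, -0.69, -2.11 and -2.20 with clp, against -0.67, 1.65, -0.59 and -0.58 with no named treatment. The difference of -1.59 ± 0.47 (limma, adjusted p = 0.0676) was wide in error, and the highest clp value lay next to the lowest of the others. Aplnr, the apelin receptor, differed by -0.41 ± 0.13 (adjusted p = 0.0886).

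The remaining genes lay mostly on the lower side without passing. At an unadjusted p under 0.05 there were 14 lower and 0 higher genes, against 11.7% and 15.4% of all features. Flt1, the decoy-like VEGF receptor, differed by -0.68 ± 0.19 (limma, adjusted p = 0.0579) and Robo4 by -0.58 ± 0.16 (limma, adjusted p = 0.0611). The receptor Kdr and the co-receptor Nrp2 had the highest positive differences, 0.44 and 0.37, neither past the threshold, and the other Kdr probe gave -0.22.

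By role, the median difference was -0.55 for the 4 secreted or enzyme products, -0.619 for the 3 lymphatic genes and -0.285 for the 7 junction and surface genes. It was -0.223 for the 5 transcription factors, -0.211 for the 7 ligands and -0.115 for the 8 receptors. The ligands and the receptors had 0 called genes each by limma, with 2 and 3 lower at an unadjusted p under 0.05. Cdh5, measured on 3 of the 4 clp arrays, was lower in all 3 pairs, by -0.78 to -0.36. With its marked spot kept the difference was -0.69 ± 0.21 (limma, adjusted p = 0.0727).

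Of 39 other tested endothelial genes 5 fell and 2 rose, with a median of -0.191. Thrombomodulin, Thbd, fell by a log2 difference of -0.88 ± 0.14, and the protein C receptor Procr rose by 1.30 ± 0.27 (limma, adjusted p = 0.0174 and 0.0292). Of 30 other angiogenesis signals 3 fell, among them the guidance ligand Sema3c (-1.24 ± 0.17) and the semaphorin receptor Plxnd1 (-1.22 ± 0.22), while the netrin receptor Unc5b rose by 1.05 ± 0.20. Of 15 pericyte and smooth muscle genes 3 fell, with Pdgfrb at -1.27 ± 0.27.

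Markers of other cell types moved between the same arrays. Of 10 macrophage genes 5 fell with a median of -0.761, and their mean over the list lay between -1.17 and -0.41 on the clp arrays, against 0.01 to 0.50 with no named treatment. Of 9 fibroblast genes 2 fell with a median of -0.751, the list means being -0.87 to -0.11 with clp, against 0.00 to 0.78. Of 16 hair shaft and root sheath genes 3 rose, with a median of 1.72, and of 9 epidermal genes 3 fell. Of 9 adipocyte genes 2 fell (median -0.282), and 9 of 11 skeletal muscle genes had a negative difference with 0 called by limma and 4 at an unadjusted p under 0.05 (median -0.589). The mean of the listed endothelial genes was -0.43 to 0.07 on the clp arrays, against 0.08 to 0.27 with no named treatment. The part of these other cell types in the result was not tested.

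The calls for clp rested on single arrays. No listed gene passed without wt clp 50 d, wt clp 90 d, Eng+/- clp 50 d or Eng+/- no named treatment 50 d. In these fits 0.012%, 0.0677%, 1.6% and 2.34% of all features passed, against 7.76% with all arrays. Without any 1 tpa array 1 listed gene passed (3.04% or 3.5% of all features). Without wt no named treatment 90 d 3 passed (6.24%), and without wt no named treatment 50 d 2 passed (4.22%). Without Eng+/- no named treatment 90 d 9 passed, where 4508 of 25093 features did. The differences stayed negative throughout (Fli1 -1.65 to -1.06, Ramp2 -0.63 to -0.48). Centring each array on its median in place of loess moved the median of all features to 0.241, called 1 listed gene and put Ramp2 at 0.04.

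**Figure D3:**
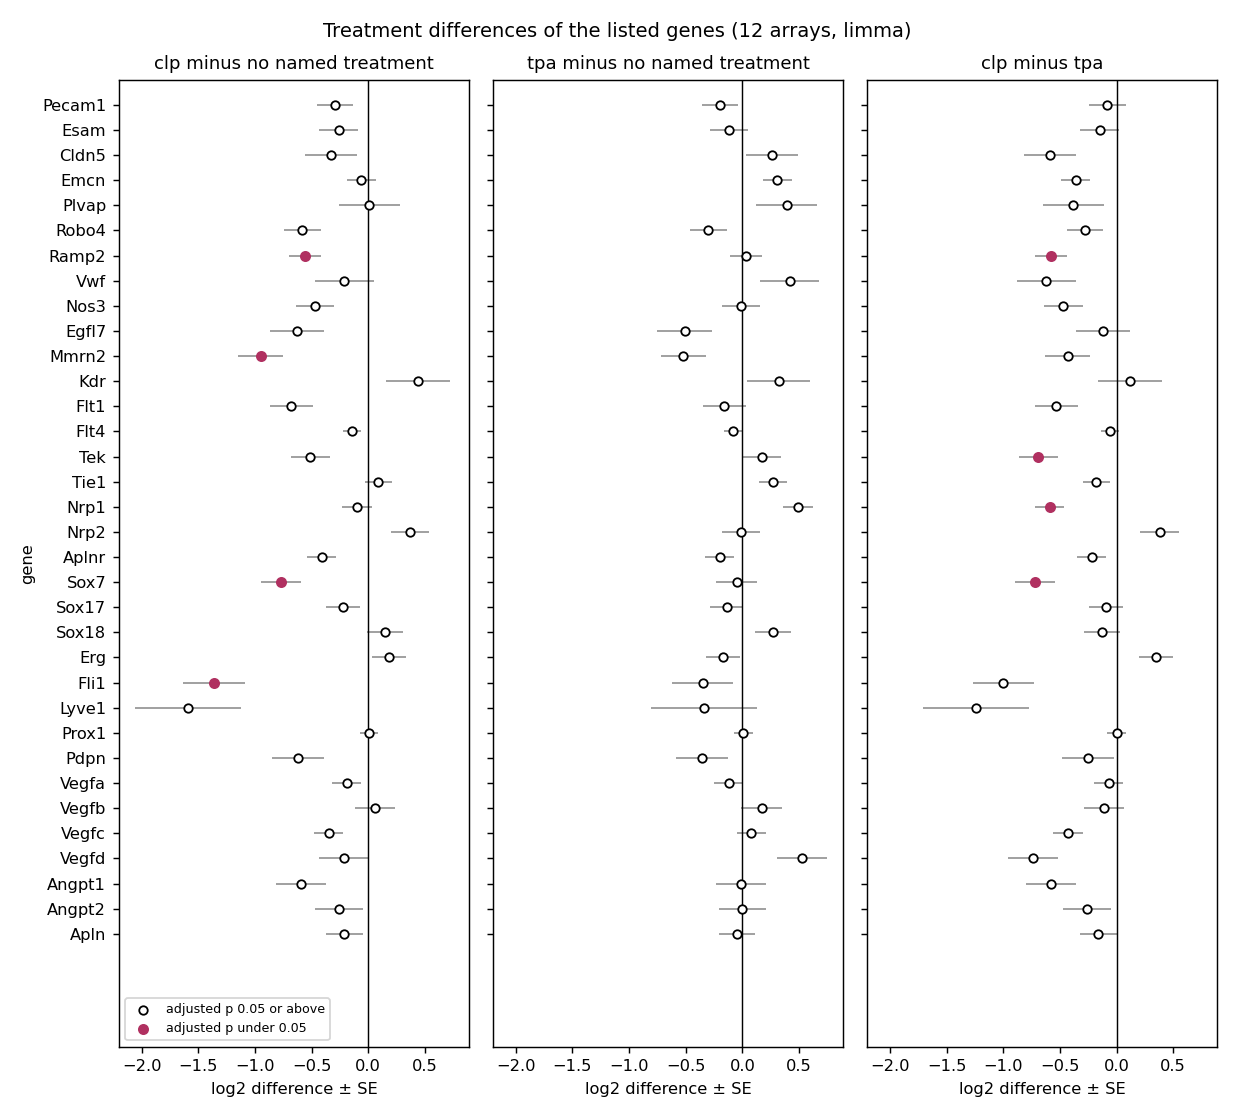
Log2 difference (x axes) of each tested gene (y axis, by role) in 3 panels, for clp minus no named treatment, tpa minus no named treatment and clp minus tpa, with bars of 1 SE and filled points for genes past the threshold. The filled points are Fli1, Mmrn2, Sox7 and Ramp2 on the left and Ramp2, Tek, Nrp1 and Sox7 on the right, all below 0, and the middle panel has none.

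With tpa no listed gene passed the threshold in limma, where 0.132% of all features did, and 4 had an unadjusted p under 0.05 (3 higher, 1 lower; 26% of all features). The median was -0.0134 with 15 of 34 genes positive, against -0.00142 for all features. The arrays with no named treatment are shared with the comparison for clp.

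Nrp1, a co-receptor for VEGF and semaphorins, had the smallest p. It stood at 1.30, 1.11, 1.48 and 1.39 with tpa, against 1.34, 0.81, 0.84 and 0.31 with no named treatment. The tpa arrays were close together, and the Eng+/- array with no named treatment at 90 d lay among them, so the groups overlapped and the difference of 0.49 ± 0.13 (limma, adjusted p = 0.086) did not pass. Mmrn2 stood at -0.30, -0.50, -0.38 and -0.56 with tpa, against -0.18, 0.21, 0.20 and 0.12. It was lower in 4 of 4 pairs without overlap, by -0.52 ± 0.20 (limma, adjusted p = 0.149), and 3 listed genes were lower without overlap (Mmrn2, Egfl7 and Robo4), where 6.62% of all features were.

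Vegfd, a ligand of Flt4, stood at 0.05, -0.14, 0.15 and 0.20 with tpa, against 0.31, -0.67, -0.93 and -0.55, a difference of 0.53 ± 0.22 (limma, adjusted p = 0.169). The sialomucin Emcn stood at 0.43, 0.42, 0.94 and 0.89 with tpa, against 0.85, 0.19, 0.30 and 0.11, a difference of 0.31 ± 0.13 (limma, adjusted p = 0.171). In both genes the Eng+/- array with no named treatment at 90 d lay apart from the other 3 of its group and within or above the tpa values. Without that array 5 of 34 listed genes passed, 3 higher and 2 lower, where 19.8% of all features did. Of 39 other endothelial genes none was called by limma and the median was -0.0383.

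Set directly against tpa, clp again gave lower values: Nrp1, Ramp2, the angiopoietin receptor Tek and Sox7 passed the threshold, and all 4 were lower with clp. This is 4 of 34 genes, against 4.55% of all features called lower and 3.62% called higher. Only 3 of the 34 genes had a positive difference, and the median was -0.273, against 0.0494 for all features.

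Nrp1 stood at 0.85, 0.29, 0.93 and 0.85 with clp, against 1.30, 1.11, 1.48 and 1.39 with tpa, a difference of -0.59 ± 0.13 (limma, adjusted p = 0.0259). Every clp array lay below every tpa array, and the pair differences ran from -0.81 to -0.46. Tek stood at 0.85, 0.21, 0.78 and 0.57 with clp, against 1.01, 1.28, 1.40 and 1.46 with tpa. Its groups did not overlap and the difference was -0.69 ± 0.17 (limma, adjusted p = 0.0395).

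Ramp2 stood at -0.26, -0.44, -0.53 and -0.93 with clp, against 0.11, -0.14, 0.15 and 0.06 with tpa, a difference of -0.58 ± 0.14 (limma, adjusted p = 0.0360) with no overlap. Sox7 stood at -0.07, 0.21, -0.37 and -0.24 with clp, against 1.19, 0.67, 0.16 and 0.39 with tpa, a difference of -0.72 ± 0.18 (limma, adjusted p = 0.0437). Here the wt clp array at 90 d lay above the Eng+/- tpa array at 50 d, although each of the 4 pairs was lower with clp. Fli1 differed by -1.0 ± 0.27 and lay just outside the threshold (limma, adjusted p = 0.0521).

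Counting genes without overlap gave 6 lower (Nrp1, Ramp2, Tek, Fli1, Vegfd and Vwf) and 0 higher, where 7.98% and 8.24% of all features were. At an unadjusted p under 0.05 there were 14 lower and 2 higher listed genes, where 6236 of 25093 features had such a p in either direction. The higher genes were Erg and Nrp2, by 0.35 and 0.38. The second Erg probe was above background on 0 arrays and gave no reading. By the probe standing for each gene, the junction and surface genes were all lower (7 of 7, median -0.361), as were the secreted or enzyme products (4 of 4, -0.446), the ligands (7 of 7, -0.261) and the lymphatic genes (3 of 3, -0.254), while 2 of 8 receptors and 1 of 5 transcription factors were positive. Probes differed in sign for 4 of 7 genes with several probes. The other probes of Plvap, Pdpn and Vegfa gave 0.26, 0.61 and 0.05, and that of Kdr gave -0.6, against 0.12. Among the lymphatic genes Prox1 differed by 0 to 2 decimals and was not above background on the clp arrays.

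Of 39 other endothelial genes 4 fell and 2 rose, including the gap junction gene Gja5 at 1.92 ± 0.29, Thbd at -0.87 ± 0.14 and Procr at 1.34 ± 0.27. Of 10 macrophage genes 7 fell, with a median of -1.36 and Adgre1 at -1.85 ± 0.20 (limma, adjusted p = 0.00602), and their list means were -1.17 to -0.41 with clp, against 0.16 to 0.72 with tpa. Of 9 fibroblast genes 3 fell, of 15 pericyte and smooth muscle genes limma called 0 and 3 had an unadjusted p under 0.05, and 4 of 16 hair genes rose. Skeletal muscle genes had a median of -0.72 with 9 of 11 negative and adipocyte genes -0.3 with 8 of 9 negative. Limma called 0 in either list, with 4 and 3 at an unadjusted p under 0.05, where 6236 of 25093 features had one. The part of these cell types was not tested. No listed gene passed without wt clp 90 d, Eng+/- clp 50 d, Eng+/- tpa 90 d, wt tpa 90 d or wt tpa 50 d. In these fits 1.41%, 2.47%, 2.17%, 2.02% and 0.809% of all features passed, against 8.17% with all arrays. Without wt clp 50 d or Eng+/- tpa 50 d 1 listed gene passed (4.05% and 5.24% of all features), and without Eng+/- clp 90 d 2 passed (5.43%). Without any 1 array of no named treatment 7 passed. There 2969 of all features passed without one of 90 d and 2353 without one of 50 d, against 2051 with all arrays.

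Between genotypes most listed genes had higher ratios in Eng+/- arrays without passing the test. Of 34 genes 28 had a positive Eng+/- minus wt difference, against 11943 of 25093 features, and the median was 0.216, against -0.00985. Limma called 0 of the 34 genes, as it did 0% of all features, and 7 genes were higher and 1 lower at an unadjusted p under 0.05 (4.95% and 8.34% of all features). The smallest adjusted p of any feature was 0.312. The median over the listed genes was 0.255 without both tpa 50 d arrays, and 0.461 with median centring, which moved that of all features to 0.107. It fell to 0.157 without wt no named treatment 50 d and wt clp 90 d, with 23 of 34 genes higher. Without either clp 50 d array it was 0.173, with 26 of 34 higher.

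The excess of higher values was uneven over the 6 pairs of arrays. The median difference was 0.53 for clp at 90 d and 0.37 for clp at 50 d, with 26 of 34 genes higher in each. It was 0.20 for tpa at 90 d (26 genes higher) and 0.20 for no named treatment at 90 d (24 higher). At 50 d it was 0.01 with tpa (17 higher), the pair in which Eng was not lower, and 0.04 with no named treatment (20 higher).

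Sox17, Sox18, Nrp1, Emcn, Tie1 and Vegfa were higher in Eng+/- in 6 of 6 pairs, where 3.2% of all features were, and Nrp2 was lower in 6 of 6, where 3.67% were. The other Vegfa probe went the other way, with a difference of -0.25. Sox17, an arterial SOX-F factor, had a lowest, median and highest ratio of 0.74, 0.80 and 1.05 in Eng+/- arrays, against 0.06, 0.43 and 0.69 in wt arrays. It was the only listed gene whose genotypes did not overlap, where 0.0717% of all features were higher without overlap, and the difference was 0.44 ± 0.13 (limma, adjusted p = 0.312). Its other probe gave 0.10.

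Sox18, its relative in vessel and lymphatic development, had 0.41, 0.88 and 0.97 in Eng+/- arrays, against 0.04, 0.40 and 0.68 in wt arrays. The groups overlapped and the difference was 0.45 ± 0.13 (limma, adjusted p = 0.312). Nrp1 had 0.84, 1.12 and 1.48 in Eng+/- arrays, against 0.29, 0.83 and 1.39 in wt arrays, a difference of 0.33 ± 0.10 (limma, adjusted p = 0.312). The spread over treatments and days within a genotype was wider than the genotype difference, which ran from 0.08 to 0.55 within pairs.

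Nrp2, the co-receptor that serves Vegfc and class 3 semaphorins, went the other way. It had -0.79, -0.33 and -0.18 in Eng+/- arrays, against -0.51, -0.04 and 0.38 in wt arrays, a difference of -0.40 ± 0.13 (limma, adjusted p = 0.328), and its other probe gave -0.35. The other negative differences were those of Kdr (-0.29 ± 0.23), Lyve1 (-0.27 ± 0.38), Erg (-0.22 ± 0.12), Pecam1 (-0.20 ± 0.13) and Flt4 (-0.01 ± 0.07). The other Kdr probe gave 0.21. Cdh5, left out of the tests, was higher in Eng+/- in 1 of 5 measured pairs, which ran from -0.90 to 0.41. With its marked spot kept the difference was -0.30 ± 0.17 (limma, adjusted p = 0.472). The largest positive difference was that of the tight junction gene Cldn5, 0.49 ± 0.19 (limma, adjusted p = 0.352). By role, and by the probe standing for each gene, the 7 ligands (median 0.292) and the 4 secreted or enzyme products (0.309) were all positive. So were 6 of 7 junction and surface genes, 5 of 8 receptors, 4 of 5 transcription factors and 2 of 3 lymphatic genes.

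**Figure D4:**
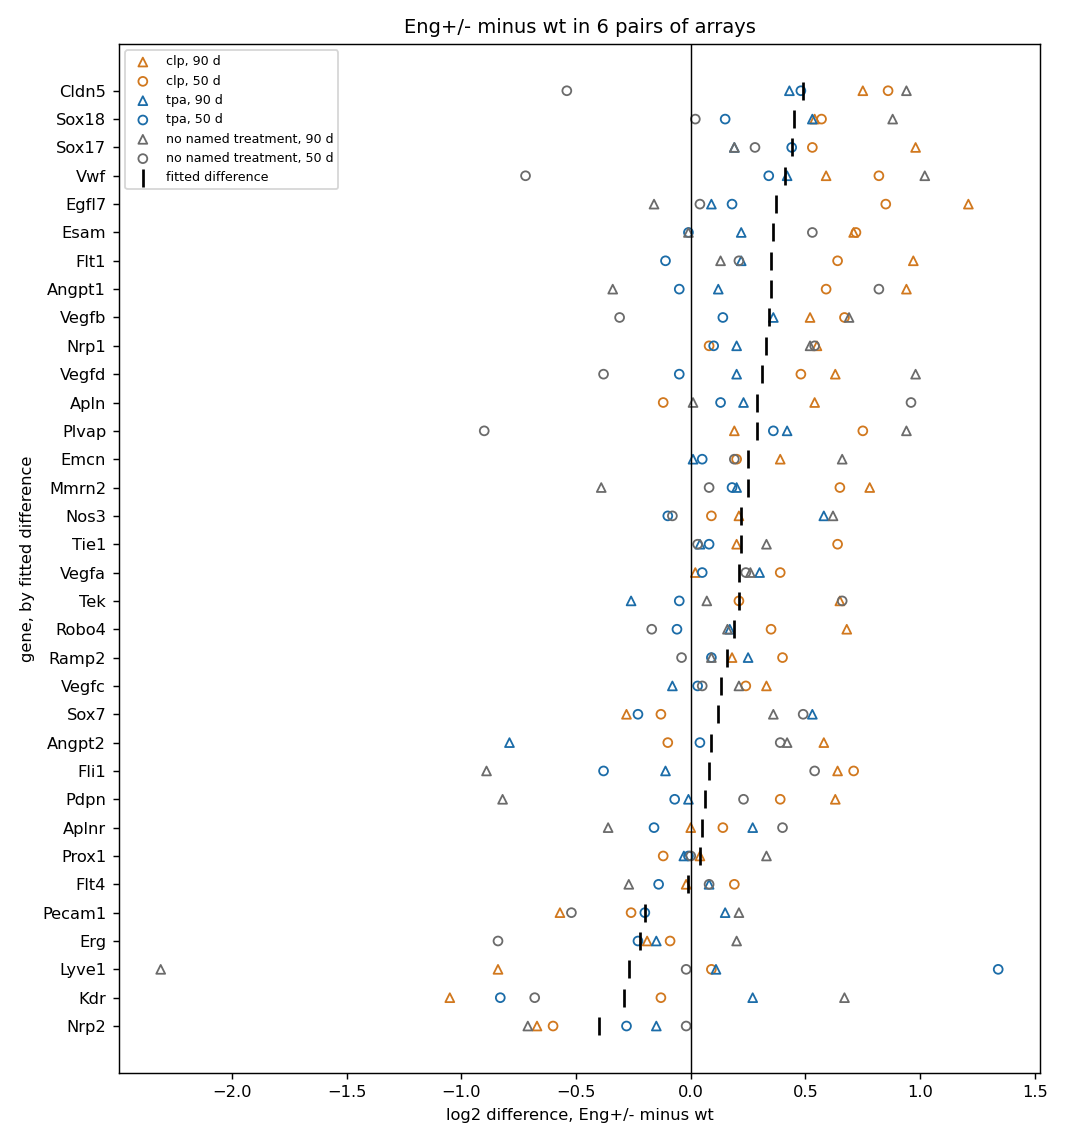
Log2 difference of Eng+/- minus wt (x axis) for each tested gene (y axis, ordered by the fitted difference), with 1 point for each of the 6 pairs of arrays, colour for treatment, shape for day and a black bar at the fitted difference. Sox17, Sox18 and Nrp1 have all 6 points above 0 and Nrp2 all 6 below it.

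Of 39 other endothelial genes 28 were positive with a median of 0.107, and limma called none. Procr (-1.05 ± 0.22) and the arterial connexin Gja5 (-1.01 ± 0.24) had the smallest p of that list and were lower in Eng+/-. Stab2 (0.33 ± 0.11) and Ecscr (0.34 ± 0.14) came next and were higher in 6 of 6 pairs. The other angiogenesis signals had a median of -0.0068, pericyte and smooth muscle genes 0.00841 and macrophage genes -0.0634. Fibroblast genes had 0.167 with 8 of 9 positive, skeletal muscle genes 0.65 with 11 of 11 positive, and hair genes -1.53 with 16 of 16 negative. By pair the hair median ran from -6.32 to 0.311 and was positive in 2 of 6 pairs. The mean of the hair list was -5.19 on the Eng+/- array with no named treatment at 90 d. On the tpa arrays at 50 d it was -4.23 in Eng+/- and -4.63 in wt. The part of these lists in the differences was not tested.

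Between 90 d and 50 d no listed gene passed within any treatment, as no feature did (0%). With no named treatment limma called 0 listed genes and 1 had an unadjusted p under 0.05 (5.49% of all features). Nrp1 stood at 1.34 and 0.81 at 90 d in Eng+/- and wt, against 0.84 and 0.31 at 50 d, so it was higher by nearly the same step in both genotypes (0.50 ± 0.18; limma, adjusted p = 0.836). Tek, Erg and Vegfd had the next smallest p, with differences of 0.52 ± 0.24 for Tek and 0.56 ± 0.31 for Vegfd. Erg was above background on only 1 of the 4 arrays compared and its pairs differed by -0.93 and 0.11, so no difference is read from it. Vegfd was higher at 90 d only in the Eng+/- pair (0.31, against -0.93 at 50 d), whereas wt stood at -0.67, against -0.55.

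With clp the median 90 d minus 50 d difference was 0.115 with 22 of 34 genes positive. Limma called 0, and 3 had an unadjusted p under 0.05 (12.6% of all features). Vegfc, the lymphatic growth factor, stood at 0.07 and -0.26 at 90 d in Eng+/- and wt, against -0.42 and -0.66 at 50 d (0.44 ± 0.18; limma, adjusted p = 0.359). Nos3 stood at -0.20 and -0.42 at 90 d, against -0.82 and -0.91 at 50 d (0.56 ± 0.24; adjusted p = 0.380 in limma). By these probes both genes were lowest on the 50 d clp arrays of either genotype. The other Nos3 probe went the other way, with a difference of -0.22. Flt1 differed by 0.61 ± 0.27 and Robo4 by 0.48 ± 0.23, in the same direction and without passing.

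With tpa the sign was the other way for most genes, with 25 of 34 negative and a median of -0.173, against 0.00969 for all features. Limma called 0 and 3 had an unadjusted p under 0.05 (5.76% of all features). Emcn stood at 0.43 and 0.42 at 90 d in Eng+/- and wt, against 0.94 and 0.89 at 50 d (-0.49 ± 0.18; limma, adjusted p = 0.713). Sox7 stood at 1.19 and 0.67 at 90 d, against 0.16 and 0.39 at 50 d (0.65 ± 0.26), and Nrp2 at -0.18 and -0.03, against -0.79 and -0.51 (0.55 ± 0.23; limma, adjusted p = 0.770 and 0.832). For these 3 genes both genotypes moved the same way, whereas Angpt2 differed mostly in Eng+/- (0.19 at 90 d, against 1.20 at 50 d; wt 0.97, against 1.16). The median difference of the hair genes was 3.93 with tpa, against -1.14 with clp and -1.83 with no named treatment. With no named treatment the mean of the hair list was lower at 90 d only in Eng+/- (-5.19, against -1.26 at 50 d). In wt it was 0.36 at 90 d, against -0.1 at 50 d. The median difference of the macrophage genes was -0.482 with tpa, 0.477 with clp and 0.357 with no named treatment. The part of the hair and macrophage genes in these differences was not tested.

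**Figure D5:**
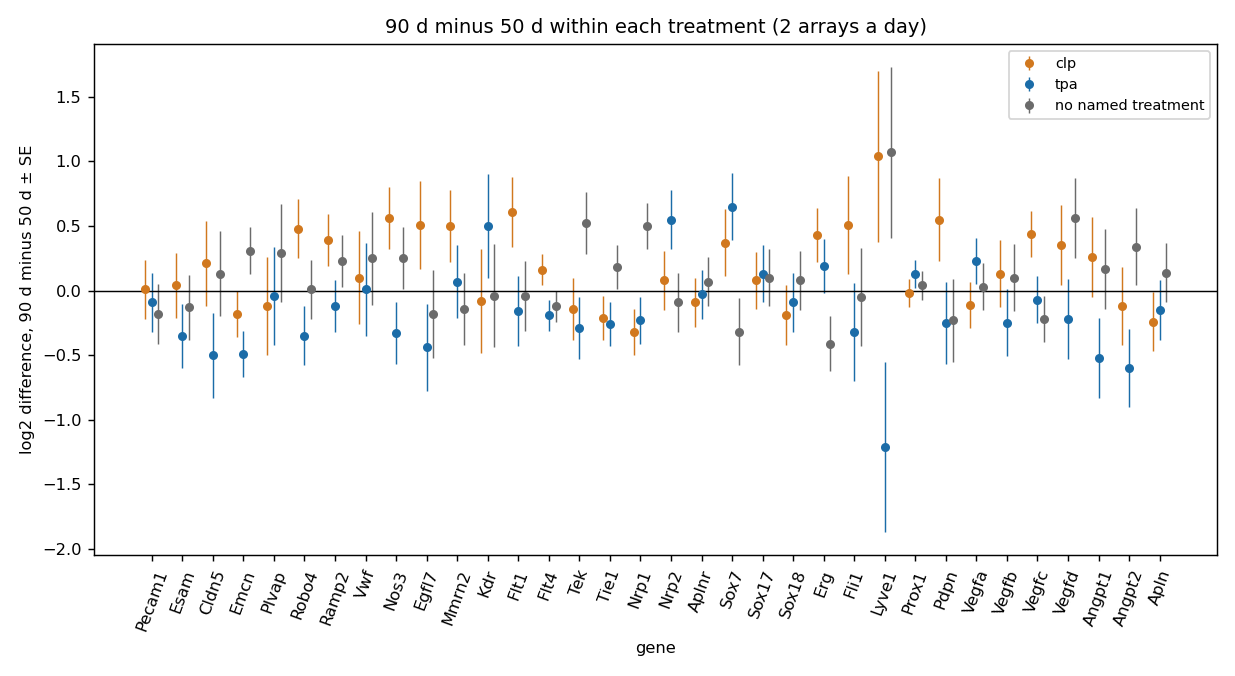
Log2 difference of 90 d minus 50 d (y axis) of each tested gene (x axis, by role) within clp, tpa and no named treatment, with bars of 1 SE. No gene passes the threshold, and most tpa points lie below 0.

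Whether the day difference changed with treatment was tested directly, and limma called 0 listed genes and 0% of all features, with 3 genes at an unadjusted p under 0.05 (13.6% of all features). Nrp1, Emcn, Erg and Lyve1 had the smallest adjusted p, 0.307, 0.337, 0.358 and 0.382, with Erg not above background on 3 of the arrays. The 90 d minus 50 d difference of Lyve1 was 1.04 with clp (0.57 in the Eng+/- pair and 1.5 in wt) and -1.21 with tpa (-1.83 and -0.60). With no named treatment it was 1.07, which rested on the wt array at 90 d, since the Eng+/- pair differed by -0.07 and the wt pair by 2.22.

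The genotype difference did not change with day or treatment past the threshold for any listed gene or feature (0% each), in a second limma model with 2 residual degrees of freedom. For day, 1 listed gene had an unadjusted p under 0.05 (3.58% of all features). This was Lyve1, whose Eng+/- minus wt difference at 90 d differed from that at 50 d by -1.49 ± 0.36 (limma, adjusted p = 0.658), with the wt array at 90 d and no named treatment at 1.65 as its highest value. It passed in a fit that lost a clp array, which is the same fit whichever of them is left out, where 422 features passed on under 2 residual degrees of freedom. Nos3, Vegfd and Erg followed with 0.50 ± 0.30, 0.58 ± 0.35 and 0.34 ± 0.25. For treatment, Lyve1 and Egfl7 had an unadjusted p of 0.0101 and 0.0446 (2.61% of all features had one under 0.05), and Mmrn2 and Flt1 came next.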

How the data were processed

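Each deposited scanner file holds, per the file headers, Cy5 and Cy3 signals as intensity with flags per spot. The authors' processed signals in them are background-subtracted intensity values, dye-normalized per the file headers, and the deposited value table is the log10 ratio of Cy5 to Cy3 and equalled the scanner's log10 ratio (largest difference 0). Feature Extraction is version 10.0 per the submitters' processing notes and 10.7.3.1 per the file headers. The series text describes wt in Cy3 and dye swaps, which the array labels do not show, so values follow the array labels.

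Median signals were corrected with normexp (offset 50) and loess in limma 3.58.1 (R 4.3.3). The deposited intensity values thus became log2 ratios. Of 43020 non-control spots, 39429 probes resulted, 975 probes with an outlier flag were left out, and the 30505 probes above background in Cy5 on at least 2 of 12 arrays gave 25093 features, the brightest probe standing for a gene. Probes were named through RefSeq accessions. limma with a variance trend fitted genotype plus 6 treatment-by-day conditions over all arrays (5 residual degrees of freedom), and a second model held all pairwise interactions. P-values were adjusted over all features by Benjamini-Hochberg (threshold 0.05) and, with 1 array per group, measure the spread these terms leave. The models were tested on simulated data.

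The listed genes, their roles and the marker lists were chosen with earlier results of these data known. Values in every array are given for genes past the threshold. Where fewer than 4 passed, the 4 with the smallest p are named, not all of them with values in every array. Alternatives were the processed signals, median centring, Cy5 alone, 2 other filters, the mean over probes, no trend, kept outlier flags and sets of arrays left out.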

Additional observations from a re-analysis of the deposited data

How the results depend on the processing

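All values here are numbers of the 34 listed genes past the threshold unless stated. For clp, 4 genes passed, against 12 with the authors' processed signals, 17 with Cy5 alone, 1 with median centring, 1 without both tpa 50 d arrays and 0 without wt no named treatment 50 d and wt clp 90 d. Of all features 3.5% and 0.0319% passed in the last 2 of these fits, against 7.76% with all arrays. Leaving out 1 array at a time gave 0 to 9, where 0.012% to 18% of all features passed. For tpa, 0 passed, against 1 with median centring and 0 to 5 with 1 array left out. For clp against tpa, 4 passed (8.17% of all features), against 7 with Cy5 alone (9.39%) and 0 without the same 2 wt arrays (1.32%). Without both 90 d arrays with no named treatment (chosen after seeing the data) 7 passed (11.8%). With 1 array left out 0 to 7 passed (0.809% to 11.8%). For the change of the genotype difference with day, 0 to 1 passed with 1 array left out. For its change with treatment 8 passed under median centring, in the second model with 2 residual degrees of freedom. The share of all features passing in that fit is not given here, so nothing is read from this count about the listed genes. Signs turned for Ramp2 with clp (0.04) and Mmrn2 with tpa (0.18) under median centring. They also turned for Erg between days with no named treatment (0.69 with processed signals, 0.32 with Cy5 alone) and for its change with day (-0.02 to 0.56 with 1 array left out). Median centring moved the median of all features to 0.241 for clp and 0.336 for tpa, and moved the features called for clp to 1596 with 88.7% higher, against 1947 with 54.9% higher. It called 222 features for genotype and 1038 for tpa, against 0 and 33, and the processed signals and Cy5 alone called 4086 and 6174 for clp. Over all alternatives, differences of the named genes kept their sign and side of the threshold in 765 cases, lost the call in 81, gained it in 10 and turned in 8; the cause was not tested. The second model keeps under 2 residual degrees of freedom with an array left out. The model of conditions already pairs the arrays of a condition, and no separate replicate block could be fitted, since each group has 1 array. Precision is limited by 12 arrays, and Prox1, Flt4 and Erg were not above background on some.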

Other observations

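Eng and most of the listed endothelial genes differed in opposite directions with clp. Eng, which endothelial cells express, stood at -0.78, 0.83, 0.94 and 1.92 on the clp arrays (Eng+/- 90 d, wt 90 d, Eng+/- 50 d, wt 50 d), against -0.86, -0.58, -1.43 and -0.24 with no named treatment. It rose by a log2 difference of 1.5 ± 0.32 (limma, adjusted p = 0.0308), while 26 of the 34 listed genes had a negative difference. Eng was higher in 4 of 4 pairs, by 0.08 to 2.37. Treatment and slide cannot be told apart here either, and the part of other cell types was not tested. The wt clp array at 50 d held both the highest Eng ratio and the lowest value of 19 listed genes.

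The anticoagulant genes Thbd and Procr, both on the list of other endothelial genes, also differed from each other with clp. Thbd fell to a mean of -0.50, against 0.38 with no named treatment, and Procr rose to 0.81, against -0.49. In bulk RNA neither reading can be assigned to endothelial cells, and the part of other cell types was not tested. Procr was also lower in Eng+/- arrays, with a mean of -0.60, against 0.45 in wt arrays, without passing the test (limma, adjusted p = 0.312).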
